A study of Homo sapiens with 2 samples.

Results

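The genes described here encode regulators of chromatin: enzymes that add or remove methyl and acetyl groups on histones, ATP-driven remodellers that move nucleosomes, and the coactivators, corepressors and Mediator subunits that work beside them. They were chosen by a rule on gene symbols that was set with earlier results of these data known. The rule took the families KMT, KDM, KAT, CHD, SMARC, ARID, BRD, BAZ, SETD, NSD, HDAC, NCOA, NCOR, MED, EHMT and BRPF. It also took 8 single names (EP300, CREBBP, ANKRD11, BPTF, TRRAP, ASH1L, EP400 and ATRX). In the list of enriched regions of a catenin immunoprecipitation (IP), 66 of 1658 gene symbols met this rule. Each was represented by the listed transcript with the most sequencing tags.

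The RNA came from MDA-MB-231, an established line of triple-negative, mesenchymal breast cancer cells. The IP sample, titled B-catenin, holds RNA recovered with catenin, and a second sample is titled B-input. Neither label names a treatment, and no antibody is named. Both are single libraries, and the input library was not analysed here on its own, so all values below are those of 1 library, without replicates and without a test. Peaks were listed for FN1, EGFR, ZEB1 and MSN, 4 of 10 checked markers of such mesenchymal cells, and for 0 of 8 luminal epithelial and 0 of 5 blood markers. The total depth of the IP library is not known. The 2440 peaks of 1 transcript per gene held 133739 tags, which is not a depth.

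Beta-catenin links cadherins to the actin cytoskeleton at cell junctions and, in the nucleus, acts with TCF and LEF factors on the genes that Wnt signals turn on. There it works through chromatin proteins: the acetyltransferases p300 and CBP (EP300, CREBBP), the remodelling ATPase BRG1 (SMARCA4) and the Mediator subunit MED12 are known protein partners. The present measurements concern the mRNAs of such genes, not their proteins. A tag is a sequenced read assigned to a peak. The fold is the enrichment that the authors' peak caller gave each peak, and for a gene the highest of its peaks is quoted. Density is given in tags per kb of the gene's own peaks, added up. Transcript lengths are not in the file, so no value per kb of transcript could be formed.

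A peak was far more frequent among chromatin regulator symbols than among other protein-coding symbols. In the RefSeq table of GRCh38.p14, used for names only, 168 protein-coding symbols met the rule and 66 had a peak (39.3%, exact Clopper-Pearson 95% interval 31.9 to 47.1%). Of the 19888 other protein-coding symbols 1561 had one (7.85%, 7.48 to 8.23%). The background over all protein-coding symbols was 8.11%. The 8 single names all had a peak and were picked with these data known. Without them, and without 7 symbols that match in letters only (the katanin genes and NSDHL), the families held 58 genes with a peak of 153 symbols (37.9%, 30.2 to 46.1%). The families too were chosen with earlier results of these data known, so this share is not an independent check. Intervals on shares and tags cover counting error only. The expression level and the length of each mRNA were not measured here.

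The families differed in this share, beside a background of 8.11% over all protein-coding symbols. Each family is small, so its Clopper-Pearson interval is wide: 30.8 to 89.1% for CHD, 11.9 to 54.3% for KDM and 5.64 to 34.7% for Mediator. All 3 NSD genes had a peak, as did 3 of 4 BAZ genes and 7 of 11 CHD genes. Of the KMT symbols 5 of 8 had a peak, and of the BRD symbols 6 of 10. The share was 4 of 10 for ARID, 5 of 12 for SETD, 5 of 13 for SMARC, 3 of 7 for NCOA, 3 of 8 for KAT without katanins and 6 of 20 for KDM. Of the 30 Mediator symbols only 5 had a peak. None of the 11 HDAC symbols, the histone deacetylases, and neither EHMT symbol did, and BRPF1 was the one BRPF gene of 2. If the 11 HDAC symbols are taken as draws, the Clopper-Pearson interval around 0 reaches 28.5%. The intervals of HDAC, EHMT, BRPF and Mediator all hold the background of 8.11%.

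Among genes with a peak, the median chromatin regulator gene had more tags and a higher fold than the median other gene. The 66 genes held 135 peaks and 7930 tags, 5.93% of all tags over peaks. Their tags ran from 12 to 958 with a median of 83, against a median of 40 in the 1592 other genes. Their median fold was 12.2 (quartiles 6.95 and 20.4), against 7.52 (5.79 and 11) in the other genes. The density differed less, with a median of 33.6 tags per kb of peak, against 29.6 in the other genes. The length covered by peaks differed more, with a median of 2315 nt per gene, against 1274 nt.

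A fold of at least 10 was reached by 39 of the 66 genes (59.1%), where the background over all genes with a peak was 30.3%. At least 2 peaks were listed for 42 of them (63.6%), where the background was 31.5%, and at least 3 peaks for 18 (27.3%), where it was 9.95%. At least 100 tags were counted on 27 (40.9%), where it was 21.4%. The fold rose with tags across genes, so genes were also compared within bands of tags. At 100 or more tags the median fold was 20.8 in 27 chromatin regulator genes and 12.7 in 327 other genes. At 50 to 99 tags it was 11 in 17 genes and 9.50 in 351. Below 50 tags it was 6.37 in 22 genes and 6.50 in 914. The covered length differed less within bands than over all tags, with medians of 4247 nt against 3417 nt, 2241 nt against 1982 nt and 841 nt against 818 nt from the highest band to the lowest. The density had medians of 52.1 tags per kb against 49.7, 32.1 against 34.2 and 25.6 against 25.2, so that its order turned in the middle band. These bands were chosen after the values were seen. They do not match genes on a further property: many folds are whole multiples of 0.5788, as given below. With every peak on these multiples, the median fold was 12.7 in 53 chromatin regulator genes and 8.10 in 957 others. In the remaining genes it was 6.37 in 13 and 6.99 in 635, so the higher fold was not seen there.

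**Figure D1:**
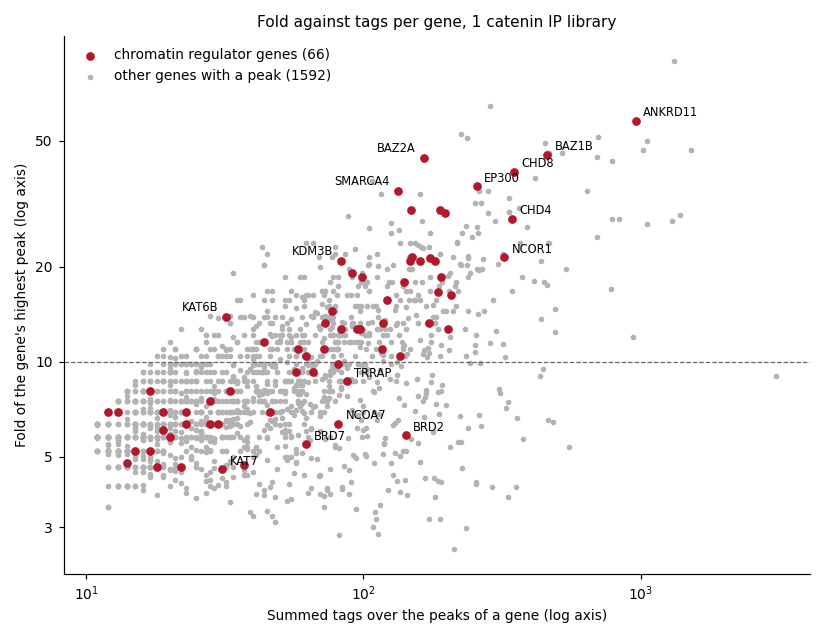
Each point is 1 gene, with its summed tags on the horizontal axis and the fold of its highest peak on the vertical axis, both on log scales; red points are the 66 chromatin regulator genes, grey points the 1592 other genes, and the dashed line marks a fold of 10. Above 100 tags the red points lie mostly in the upper part of the grey cloud, with BRD2 (142 tags, fold 5.86) as the lowest of these by fold.

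The corepressor gene ANKRD11 had the most tags of the 66 genes. It encodes an ankyrin repeat protein that recruits histone deacetylases to nuclear receptor coactivators, and had 958 tags (exact Poisson 95% interval 898 to 1021). Its only peak spanned nt 278 to 5698 of ENST00000301030, at 177 tags per kb and a fold of 57.88. ANKRD11 alone held 12.1% of the tags of the 66 genes and ranked 9 of 1658 by tags and 3 by fold. NCOR1, a corepressor of nuclear receptors that holds the deacetylase HDAC3, had 322 tags (288 to 359) in 2 peaks, at 52.9 tags per kb and a fold of 21.42. Its first peak, at nt 455 to 5139 of ENST00000395851, held 295 of these tags. ARID4B, a subunit of the SIN3 deacetylase complex, had 91 tags at a fold of 19.1. SIN3A, the scaffold of that complex and outside the symbol rule, had 258 tags at a fold of 25.59.

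The CHD remodellers use ATP to move nucleosomes and carry chromodomains that bind histone tails. All 7 CHD genes with a peak had at least 2 peaks and a fold of at least 10. The background over all genes with a peak was 31.5% for at least 2 peaks and 30.3% for that fold. Together the 7 CHD genes had 1423 tags, 17.9% of those on chromatin regulator genes. CHD8, a remodeller known to bind beta-catenin protein, had 348 tags (312 to 387) in 4 peaks and a fold of 39.94. Its first peak, at nt 35 to 2858 of ENST00000430710, held 250 of these tags and the highest fold, while the 3 downstream peaks had folds from 5.79 to 10.82. CHD4, the main ATPase of the NuRD deacetylase complex, had 343 tags (308 to 381) in 2 peaks that covered 99.1% of nt 91 to 4697 of ENST00000544040. Its density was 75.2 tags per kb at a fold of 28.36. CHD3, the alternative NuRD ATPase, had 140 tags, 35.0 per kb and a fold of 17.94. The density ratio of CHD4 to CHD3 was 2.15 (1.76 to 2.64).

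CHD1 and CHD2, which are close relatives, had 202 and 172 tags and 39.2 and 37.7 tags per kb, a ratio of 1.04 (0.843 to 1.28). CHD6 had 160 tags at a fold of 20.84, and CHD7, mutated in CHARGE syndrome, had 58 tags at a fold of 11. CHD7 was thus the lowest of the group by tags, fold and density, at 32.1 tags per kb, and the ratio of CHD8 to CHD7 was 1.92 per kb (1.45 to 2.58). Among genes of this group outside the rule, ADNP, a partner of CHD4, had 100 tags at a fold of 12.6, GATAD2A 80 at 9.46, GATAD2B 75 at 8.1 and MTA3 17 at 4.86.

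ISWI remodellers pair the ATPase SMARCA5 or SMARCA1 with a large regulatory subunit. All 5 ISWI genes of the rule with a peak had a fold of at least 10, where the background was 30.3%. BAZ1B, the Williams syndrome transcription factor, had 461 tags (420 to 505) in 1 peak at nt 315 to 5156 of ENST00000404251, with 95.2 tags per kb and a fold of 45.15. BAZ2A, the subunit of the complex that silences ribosomal RNA genes, reached a similar fold of 43.99 with 165 tags, of which 150 lay at nt 1564 to 2725 of ENST00000549884. Its other peak, at nt 121 to 826, had 15 tags and a fold of 4.63. That 9.50-fold range between peaks of 1 transcript was the widest among the 42 genes with at least 2 peaks. BAZ1A had 181 tags at a fold of 20.84, and BPTF, the large subunit of NURF, 191 tags at 18.52. The ATPase gene SMARCA5 was the lowest of the group, with 72 tags (56.3 to 90.7) at a fold of 11. RSF1, a further partner of SMARCA5 outside the rule, had 242 tags at a fold of 19.1.

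In the SWI/SNF complexes, which use SMARCA4 (BRG1) or SMARCA2 (BRM) as the motor, the 9 genes of the rule had 13 to 150 tags. The core scaffold genes SMARCC2 and SMARCC1 were nearly equal, with 150 and 147 tags and folds of 21.42 and 20.84. Their density ratio was 1.18 (0.936 to 1.495). The motor genes differed: SMARCA4 had 133 tags in 1 peak at nt 1255 to 2895 of ENST00000344626, at 81.0 tags per kb and a fold of 34.6, whereas SMARCA2 had 62 tags in 3 peaks, at 24.7 tags per kb and a fold of 10.42. The density ratio of SMARCA4 to SMARCA2 was 3.28 (2.41 to 4.50), the largest of the 17 pairs of related genes compared. ARID1A, the DNA-binding subunit of the BAF form, had 83 tags at a fold of 12.73, and its alternative ARID1B 13 tags at 6.95. Subunits of other forms had at most 62 tags: BRD7 (62 tags, fold 5.48), ARID2 (19, 6.95) and BRD9 (19, 6.09). PBRM1, outside the rule, had 28 tags at a fold of 6.37, and no peak was listed for SMARCB1 or for the SMARCD genes and SMARCE1.

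**Figure D2:**
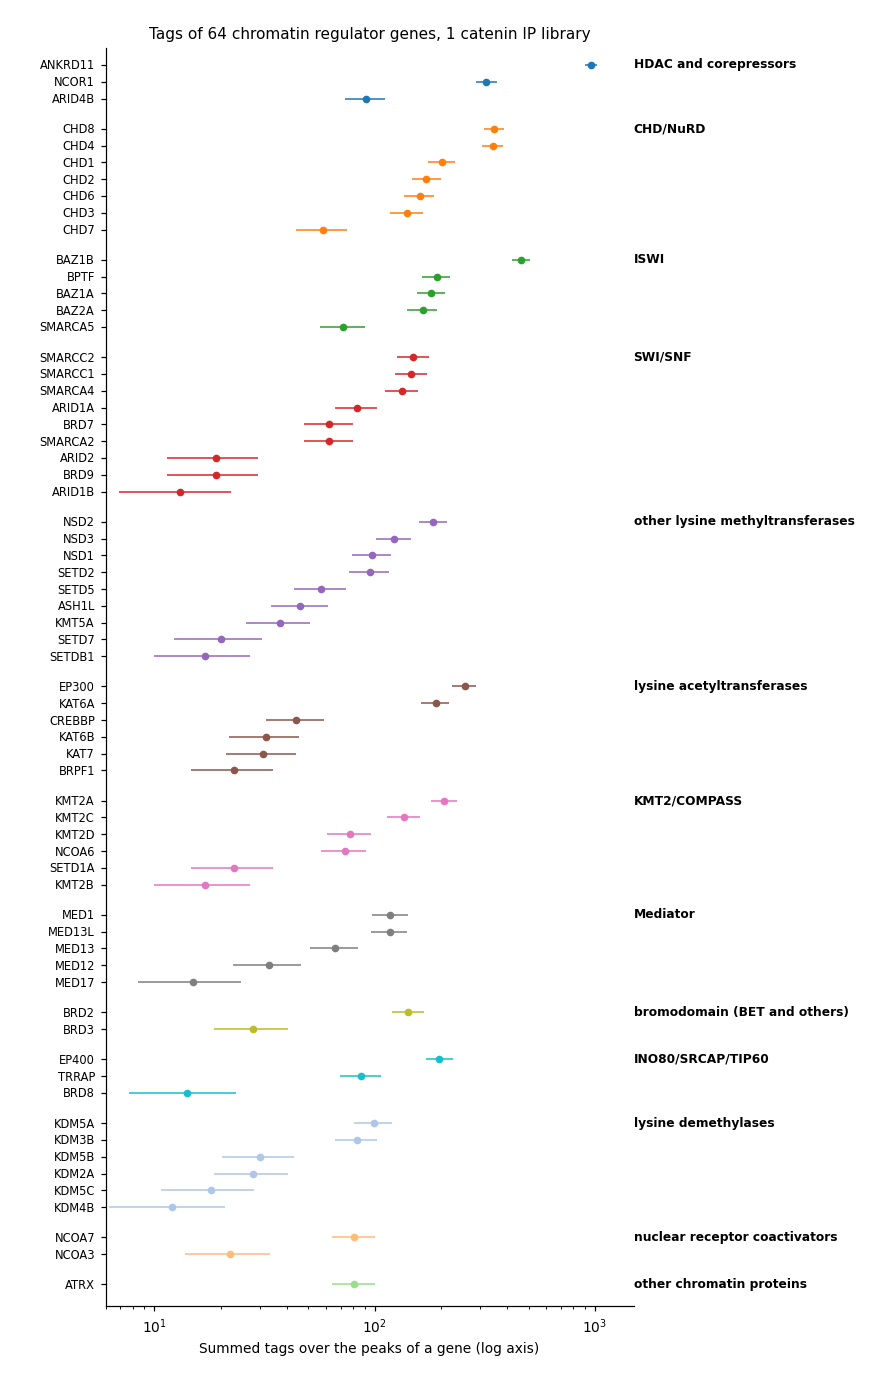
Points are the summed tags of 64 of the 66 genes on a log axis, grouped by complex, and bars are exact Poisson 95% intervals that cover counting error only. ANKRD11 stands apart at 958 tags, the CHD and ISWI groups lie mostly above 100 tags, and most groups of enzymes hold genes both above 100 and below 50 tags.

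Among the acetyltransferases, paired genes were unequal. EP300 had 256 tags (226 to 289) in 4 peaks between nt 1361 and 8159 of ENST00000263253, and its highest fold of 35.89 lay in the peak at nt 4707 to 6488. CREBBP, its close relative, had 44 tags (32.0 to 59.1) in 2 peaks, at nt 3539 to 4414 and 5062 to 5593 of ENST00000262367, with a highest fold of 11.58. Per kb of peak the ratio of EP300 to CREBBP was 1.42 (1.03 to 2.003), so most of the 5.82-fold gap in tags (4.21 to 8.20) came with the length covered, 5768 nt for EP300 and 1408 nt for CREBBP. KAT6A (MOZ) had 189 tags at 59.2 per kb and a fold of 30.1, and KAT6B (MORF) 32 tags at 26.8 per kb and 13.89, a density ratio of 2.21 (1.51 to 3.32). KAT7 had 31 tags at a fold of 4.57, the lowest fold of the 66 genes, and BRPF1, the scaffold that binds KAT6A and KAT6B, had 23 tags at 6.37.

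The methyltransferases of the KMT2 family methylate histone H3 at promoters and enhancers. The peaks of KMT2A, KMT2C and KMT2D were spread over 13012, 11532 and 11147 nt, whereas KMT2B had 1 peak of 654 nt. KMT2A (MLL) had 207 tags (180 to 237) in 5 peaks from nt 409 to 13420 of ENST00000534358. Its folds were 16.21, 10.42, 5.79, 8.68 and 5.21 in the order of the transcript, and no peak lay between nt 8922 and 12639. KMT2C had 136 tags in 4 peaks from nt 416 to 11947 of ENST00000262189, and its highest fold, 10.42, was in the last of them. Part of KMT2C has near-identical copies elsewhere in the genome, so its tags are uncertain. KMT2D had 77 tags in 2 peaks, at nt 5681 to 6498 and 15784 to 16827 of ENST00000301067, separated by 9285 nt, the longest gap within the 66 genes. Its density of 41.4 tags per kb exceeded that of KMT2C (27.1 per kb), with a ratio of KMT2C to KMT2D of 0.656 (0.493 to 0.880). NCOA6, a subunit of the KMT2C and KMT2D complexes, had 73 tags at a fold of 13.31, SETD1A 23 at 6.95 and KMT2B 17 at 8.1. Of their partners outside the rule, PSIP1 had 114 tags at a fold of 8.27, while WDR82 had 19 tags, HCFC1 17, RBBP5 16 and PAXIP1 12. The shared subunit genes WDR5, ASH2L and DPY30 had no peak listed.

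Of the other methyltransferases, the 3 NSD genes, which act on histone H3 along gene bodies, led. NSD2 had 185 tags at 50 per kb and a fold of 16.68, NSD3 122 tags at 35.0 per kb and 15.63, and NSD1 97 tags at 34.5 per kb and 12.73. NSD2 was denser than both, with ratios of 1.43 (1.13 to 1.81) to NSD3 and 1.45 (1.13 to 1.87) to NSD1. SETD2, which trimethylates the same residue during transcription, had 95 tags in 3 peaks and its highest fold, 12.73, at nt 4840 to 6484 of ENST00000409792. SETD5 had 57 tags at a fold of 9.26 and ASH1L 46 tags in 3 peaks with folds of 6.95, 6.95 and 6.37. KMT5A (37 tags, fold 4.73), SETD7 (20, 5.79) and SETDB1 (17, 5.21) closed the group, and SETDB1 had the lowest density of the 66 genes, 19.1 tags per kb.

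Of the 6 lysine demethylase genes with a peak, 2 reached a fold of 10, KDM5A and KDM3B. This share is near the background of 30.3% over all genes with a peak. KDM5A had 99 tags (80.5 to 121) in 3 peaks, with a fold of 18.52 in the last at nt 4544 to 5517 of ENST00000399788. Its relatives KDM5B and KDM5C had 30 and 18 tags at folds of 6.37 and 4.63, but per kb of peak neither ratio left the range of counting error (1.12, 0.735 to 1.74, and 1.26, 0.757 to 2.21). KDM3B had 83 tags, all at nt 332 to 1651 of ENST00000314358, with 62.9 tags per kb and a fold of 20.84, the highest in the group. KDM2A had 28 tags at 7.52, and KDM4B had 12 tags (6.201 to 20.96) at 6.95, the fewest of the 66 genes. JMJD1C, a demethylase relative outside the rule, had 143 tags in 4 peaks at a fold of 17.94.

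**Figure D3:**
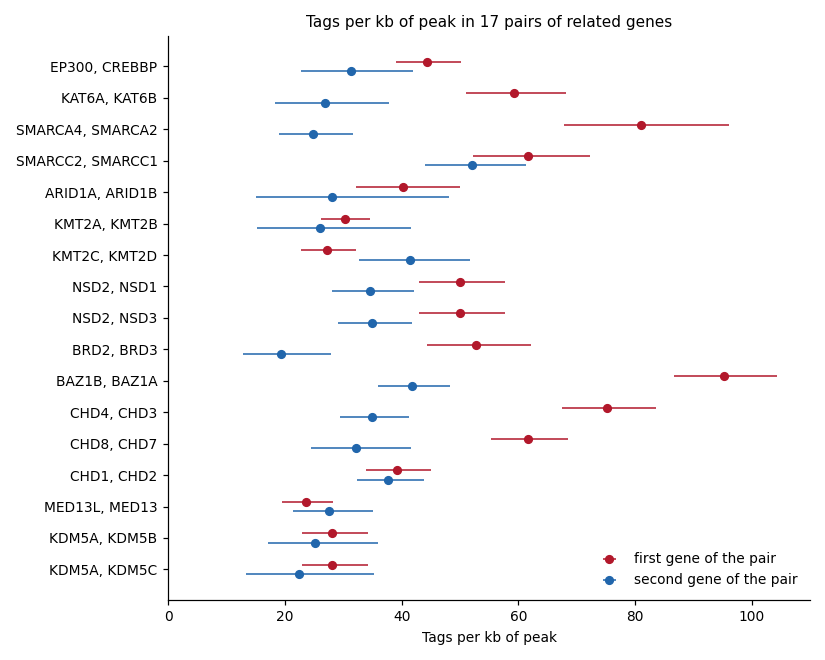
Tags per kb of peak are shown for 17 pairs of related genes, the first gene of each label in red and the second in blue, with exact Poisson 95% intervals for counting error only. Red and blue lie far apart for SMARCA4 and SMARCA2 and for BAZ1B and BAZ1A (95.2 and 41.8 per kb), and overlap for CHD1 and CHD2, MED13L and MED13 and KDM5A and KDM5B.

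Over the 17 pairs, some of which share a gene, the interval of the ratio left 1 in 15 pairs by tags but in 10 pairs per kb of peak. The gene with the higher density also had the higher fold in 14 of 17 pairs. Both values rest on the same tags, so they are not independent measures. The peak length is itself the authors' call and grows with tags, so the per kb values are those of the enriched stretches only. Across the 66 genes, tags and peak length had a Spearman rho of 0.912, and tags and fold 0.842, against 0.921 and 0.541 across the 1592 other genes. These are descriptions across genes of 1 library.

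Of the BET bromodomain genes, whose proteins read acetylated histones, BRD2 and BRD3 had different tags and density but similar folds. BRD2 had 142 tags at 52.7 per kb and a fold of 5.86, and BRD3 28 tags in 2 peaks, at 19.3 per kb and a fold of 6.37. Their density ratio was 2.72 (1.81 to 4.25), while the fold ratio was 0.920. In the wider bromodomain list 11 of 17 genes had a peak, where the background over all protein-coding symbols was 8.11%. Highest by tags among those outside the rule were ZMYND8 (165 tags, fold 10.93), TRIM33 (118, 13.31) and ATAD2 (105, 21.42).

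In the INO80, SRCAP and TIP60 group, EP400, the motor of TIP60 complexes, had 197 tags in 3 peaks. The first at nt 2224 to 3466 of ENST00000389561 and the second at nt 5428 to 7037 had folds of 29.52 and 24.89, and the third had 5.21. TRRAP, a giant scaffold shared by acetyltransferase complexes, had 87 tags spread evenly over 5 peaks from nt 420 to 11351 of ENST00000355540. Each TRRAP peak held 14 to 22 tags at a fold between 6.37 and 8.68. BRD8 had 14 tags at 4.79. SRCAP (112 tags, fold 22), YY1 (85, 13.27) and INO80 (46, 6.95) were listed outside the rule.

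Mediator, which bridges transcription factors and RNA polymerase II, was represented by 5 of its genes. MED1, the subunit that nuclear receptors bind, had 118 tags in 3 peaks at a fold of 13.31. MED13L and MED13, which tie the kinase module to the core, had 117 tags in 5 peaks and 66 tags in 2 peaks, with densities of 23.5 and 27.6 tags per kb and folds of 11 and 9.26. MED12, the kinase module subunit known to bind beta-catenin, had 33 tags (22.7 to 46.3) at a fold of 8.1, and MED17 had 15 tags at 5.21. No peak was listed for CDK8, CDK19 or CCNC. The coactivator genes NCOA7 and NCOA3 had 81 and 22 tags at folds of 6.37 and 4.63. ATRX, a remodeller of heterochromatin and telomeres, had 81 tags, of which 64 lay at nt 2175 to 4072 of ENST00000373344, at a fold of 9.84.

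**Figure D4:**
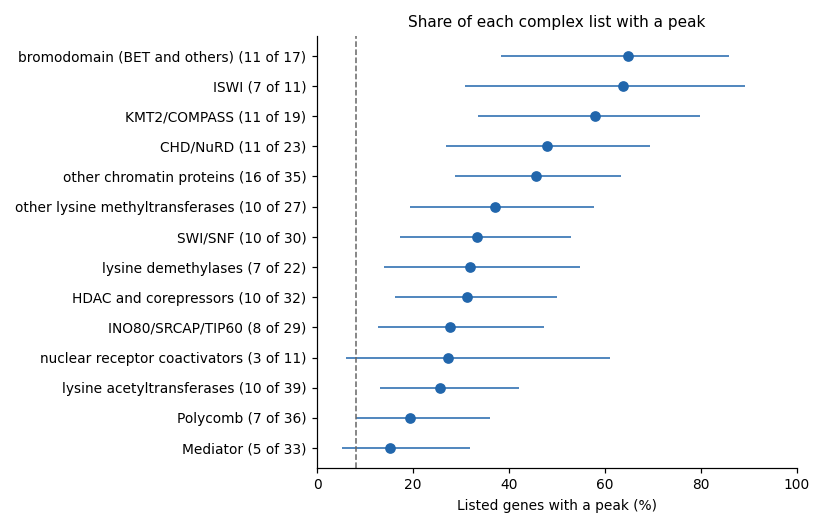
Points give the share of the genes in each of 14 complex lists that had a peak, bars are exact Clopper-Pearson 95% intervals, counts stand beside the names, and the dashed line marks the 8.11% of all protein-coding symbols. Bromodomain (64.7%) and ISWI (63.6%) genes were highest and Mediator (15.2%) lowest, and the intervals of the coactivator and Mediator lists reach the line.

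The complex lists, which include genes outside the symbol rule, held 364 genes, of which 126 had a peak (34.6%, 29.7 to 39.8%). Of the 210 listed genes outside the rule 60 had one (28.6%, 22.6 to 35.2%). The background over all protein-coding symbols was 8.11%. These lists too were drawn up with earlier results of these data known, so neither share is an independent check. A fold of 10 was reached by 29 of these 60, where the background over all genes with a peak was 30.3%. The 60 genes had a median of 49 tags at a fold of 9.65, between the 66 genes of the rule and the other genes. SUPT16H, a subunit of the FACT histone chaperone, had 489 tags at a fold of 14.69, more tags than any of the 66 genes but ANKRD11. SUPT6H had 325 tags at 10.36, DNMT1, the maintenance DNA methyltransferase, 305 at 20.43, and SPEN, a corepressor scaffold, 272 at 14.47. Of 36 Polycomb genes, which silence developmental genes, 7 had a peak (19.4%, 8.19 to 36.0%). The low end of that interval lies close to the background of 8.11%. ASXL2 (147 tags, fold 16.79) and ASXL1 (95, 16.21) led the Polycomb genes. SUZ12 had 58 tags at 11, while EZH2 and EED had no peak listed. Absence from the list says only that no peak passed the authors' threshold.

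Along the transcripts, 24 of the 66 genes had a single peak and 42 had at least 2. The first peak began within 500 nt of the annotated start in 36 of 66 genes (54.5%), against 812 of 1592 other genes (51.0%). The median start was nt 437.5 in the chromatin regulator genes, against 488 in the other genes. Within the bands of tags the order turned, with nt 365 against 247 at 100 or more tags, 420 against 352 at 50 to 99 and 788 against 725.5 below 50. The 95% order-statistic intervals overlapped in every band, with 156 to 525 against 216 to 291 in the highest. These values do not settle which genes start earlier. In 19 of the 66 genes the first peak began beyond nt 1000, among them EP300, CREBBP, KMT2D, EP400 and ARID1A. In genes with at least 2 peaks, the peaks covered a median of 66.4% of the distance from the first to the last in 42 chromatin regulator genes, against 77.5% in 480 other genes. In 6 of the 42 they covered at least 90%, with CHD4 at 99.1%. That distance had a median of 5015 nt, against 3551 nt. The highest fold was in the first peak in 24 of these 42 genes, in the last in 12, in a middle peak in 4, and was tied in 2. In the other genes it was in the first peak in 238 of 480 (49.6%, against 57.1%).

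**Figure D5:**
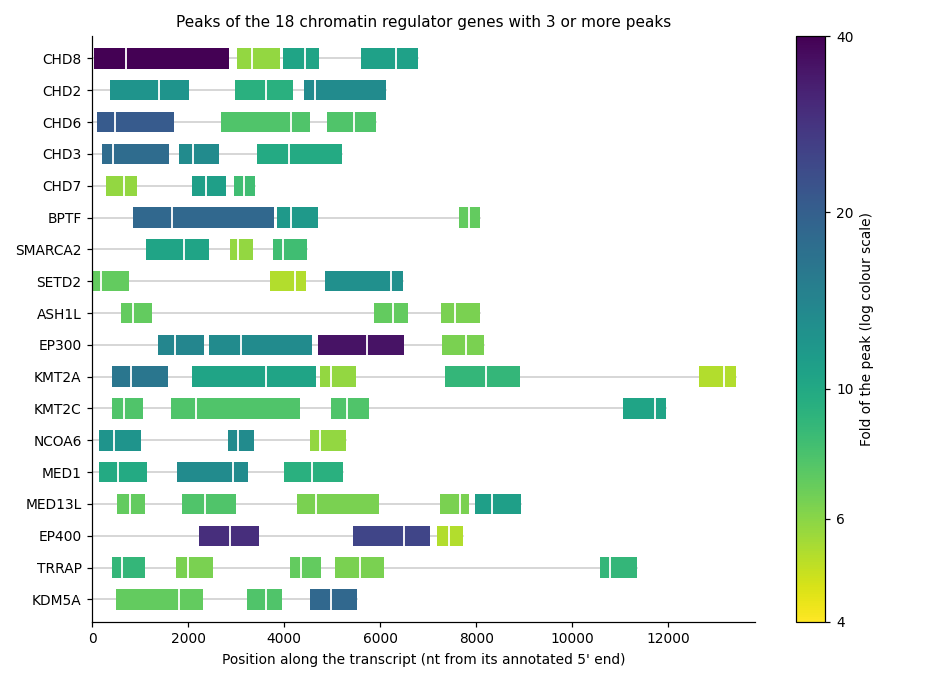
Bars show the peaks of the 18 genes with 3 or more peaks along their transcripts, in nt from the annotated 5' end, coloured by fold on a log scale, with a white line at each summit. CHD8 and CHD6 have their highest fold in the first peak and KDM5A in the last, whereas the 5 TRRAP peaks have folds of 6.37 to 8.68.

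By the authors' region labels 77 of 135 peaks (57.0%, 48.2 to 65.5%) lay in coding sequence alone, against 892 of 2305 peaks of other genes (38.7%, 36.7 to 40.7%). A further 27 were labelled as 3' untranslated and coding, 22 as 3' untranslated alone, 7 as 5' untranslated and coding, and 2 as both untranslated regions. These labels are doubtful: of 10 peaks labelled 3' untranslated alone in transcripts that also had a coding-only peak, 8 lay upstream of every such peak. For the label of 3' untranslated and coding sequence it was 12 of 15.

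The folds took stepwise values. In 122 of the 135 peaks (90.4%, 84.1 to 94.8%) the fold fell on n times 0.5788, with n whole and a tolerance of 0.0051, against 1588 of 2305 peaks of other genes (68.9%, 67.0 to 70.8%). The 53 chromatin regulator genes with every peak on these multiples had a median fold of 12.7, and the 957 such other genes 8.10. In the remaining 13 genes the median fold was 6.37, against 6.99 in 635 other genes. No peak was on the multiples in 7 genes: SMARCA4, BRD2, BRD7, BRD8, BRD9, KAT7 and KMT5A. Apart from SMARCA4 their folds were 4.57 to 6.09. For each gene, the density over all its peaks was divided by the fold of its highest peak. This quotient was 9.80 in KMT5A, 9.06 in KAT7, 8.99 in BRD2, 6.55 in BRD7, 5.74 in BRD8, 3.87 in BRD9 and 2.34 in SMARCA4. Its median was 2.87 over the 66 genes and 3.61 over the other genes. The quotient also varied with tags. Its medians were 3.95 against 3.795 below 50 tags, 2.92 against 3.17 at 50 to 99 and 2.34 against 3.17 at 100 or more. The values of BRD9 (19 tags) and SMARCA4 (133 tags) were thus near the medians of their bands. The 7 named genes had 1 peak each. In genes with several peaks the quotient mixes peaks of unlike fold. At least 2 peaks were listed for 42 of the 66 genes and 480 of the 1592 other genes, so these medians are not like for like.

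The choice of transcript mattered for some genes, since 55 of the 66 had several listed transcripts, 222 in all. In 21 genes the listed transcript with the fewest tags had under 50% of the tags of the one used here. For ANKRD11 the 3 listed transcripts ran down to 79 tags with a fold of 21.42, and for NCOR1 the 4 transcripts down to 51 tags with a fold of 7.52. For EP300, KMT2D and KDM3B only 1 transcript was listed.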

How the data were processed

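One deposited table was used, that of the IP sample. Per the file headers it lists peaks along Ensembl transcripts, with start, end, length and summit (here counted from the peak's start). The tag count of a peak is a whole number, as deposited by the authors. The fold is the ratio of the authors' peak caller, per the file headers, and describes peaks within this list only. The score, in a deposited column whose name a spreadsheet lost, was used only as a filter. The submitters' processing notes name the build hg18; the aligner, the caller, the annotation and the background library are not given there or in the labels.

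Per symbol the transcript with the most summed tags was kept (ties: lowest identifier). Of 1658 symbols, 1592 were found in the RefSeq table, 46 by an older symbol and 20 were not found. Poisson, Clopper-Pearson and order-statistic (medians) intervals are at 95%. Intervals on tags and on ratios of tags cover counting error only, as reads were not counted by molecular identifier. Those on shares and medians treat genes or peaks as independent draws. The computations used Python 3.11.15, pandas 2.3.3, NumPy 2.4.6 and SciPy 1.17.1 and were tested on simulated data. Members, lists, pairs and thresholds were chosen with earlier results of these data known. Genes named were the 20 with most tags, the leader by tags and the leader by fold of each complex, those with at least 3 peaks, the lowest ones, and listed genes outside the rule that had a peak; the other members were then named too. Results of 2 members are not reported here. The 60 outside genes are otherwise summarised.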

Additional observations from a re-analysis of the deposited data

How the results depend on the processing

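No paired analysis was possible because IP and input are 1 library apiece. A score of at least 100 left 39 genes with 6440 tags, a median fold of 18.5 and 48.4 tags per kb, and 18 with at least 2 peaks; a score of at least 50 left 7384 tags. These filters remove weak peaks by construction, and the median fold of the other genes was then 12.1 at a score of at least 100. Every listed transcript counted on its own gave 222 units. The core families (KMT, KDM, KAT, CHD, SMARC, ARID, EP300 and CREBBP) held 32 genes with 3489 tags. Without ANKRD11, 6972 tags remained, and with the transcript of highest fold 7747. The highest peak density of a gene had a median of 40.02 tags per kb. The tags of the core families were computed as an alternative chosen after seeing the data. The count of genes with a fold of at least 10 stayed at 35 to 39 under its 3 alternatives. Counting error is widest for genes with few tags: 22 of 66 had under 50 and 9 under 20.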

Other observations

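CHD8, EP300, SMARCA4, CREBBP, TRRAP and MED12, picked as genes of protein partners of beta-catenin, had folds of 8.1 to 39.94. The range over the 66 genes was 4.57 to 57.88. This list was chosen after the values were seen and makes no claim to be complete. CHD8 (fold 39.94), EP300 (35.89) and SMARCA4 (34.6) were among the 25 highest of all 1658 genes by fold, whereas CREBBP (11.58), TRRAP (8.68) and MED12 (8.1) ranked 368, 640 and 725.

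The KEGG annotation that the authors joined to the transcripts named a pathway for 26 of the 66 genes. Over all 1658 genes with a peak it named one for 599, a similar share. Lysine degradation, which holds the histone methyltransferases in this annotation, had 13 of them among 15 genes with a peak. That count follows largely from the symbol rule, which takes in the KMT, SETD and NSD families. Thyroid hormone signalling had 8 of 22: CREBBP, EP300, MED1, MED12, MED13, MED13L, NCOA3 and NCOR1. Wnt signalling had 3 of 24 (CHD8, CREBBP and EP300). Both counts also depend on the symbol rule, which takes in the MED, NCOA, NCOR and CHD families, EP300 and CREBBP. Over all genes with a peak the rule took in 66 of 1658. No pathway was tested.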
